A study of Homo sapiens with 10 samples.

Results

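The epithelial-mesenchymal state genes described here are 10 genes, matched by symbol to the Ensembl identifiers of the gene tables and of the peak lists, out of 58037 gene identifiers. They are the cadherins CDH1 and CDH2, the structural genes VIM and FN1, the epithelial genes EPCAM, ESRP1 and GRHL2, and the repressors ZEB1, ZEB2 and SNAI2. The rule is a list of symbols and uses no measured value, but the list was chosen with earlier results of these data known. RNA of A549, a human lung adenocarcinoma line, was set against RNA of A549/DDP, its cisplatin-resistant derivative. Each line had 2 input libraries, which are RNA not pulled down and serve as RNA-seq, and 2 m6A-seq libraries, in which RNA fragments bound by an antibody against N6-methyladenosine are sequenced. Both lines were grown in RPMI 1640 with serum and antibiotics, at 10 passages or fewer per the labels. The labels name no drug treatment at harvest and no genetic change in either line. A549/DDP is 1 resistant line, received by the study as a gift from another laboratory, while A549 was bought from a supplier. The source of the line and its resistance cannot be told apart here.

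Epithelial cells hold to one another through E-cadherin and keep a keratin skeleton. In the epithelial-mesenchymal transition, transcription factors of the ZEB and SNAI families bind E-boxes in the CDH1 promoter and repress it, while N-cadherin, vimentin and fibronectin are made in larger amounts. Grainyhead-like factors such as GRHL2 and the splicing factors ESRP1 and ESRP2 maintain the epithelial program, and the ZEB factors and the miR-200 family repress each other. A549 is known as a line with mixed epithelial and mesenchymal features.

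Promoters of CDH2 and ZEB2, the members that fell in A549/DDP, and of ZEB1, which did not pass the test, are shown, since repressors of this family act through E-boxes. The sequences are RefSeq promoters of GRCh38.p14, each with 250 bases before and 50 bases from the transcript start, written 5′ to 3′ on the gene's strand. The E-box letters searched were CACCTG and its reverse complement CAGGTG, which covers both strands, and capitals mark each match. RefSeq lists 7 starts of ZEB1 and 2 of CDH2, and 1 of each is shown, for ZEB1 the start with the most matches. The first is the ZEB1 start at chr10:31318966-31319265 on the plus strand, the second is ZEB2 at chr2:144520070-144520369 on the minus strand, and the third is CDH2 at chr18:28177081-28177380 on the minus strand.
ZEB1: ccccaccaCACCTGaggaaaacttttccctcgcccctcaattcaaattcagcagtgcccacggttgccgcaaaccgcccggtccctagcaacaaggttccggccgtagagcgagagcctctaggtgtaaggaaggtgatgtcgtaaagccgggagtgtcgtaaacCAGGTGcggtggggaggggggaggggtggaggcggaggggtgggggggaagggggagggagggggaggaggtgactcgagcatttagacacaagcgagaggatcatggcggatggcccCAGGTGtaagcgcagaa
ZEB2: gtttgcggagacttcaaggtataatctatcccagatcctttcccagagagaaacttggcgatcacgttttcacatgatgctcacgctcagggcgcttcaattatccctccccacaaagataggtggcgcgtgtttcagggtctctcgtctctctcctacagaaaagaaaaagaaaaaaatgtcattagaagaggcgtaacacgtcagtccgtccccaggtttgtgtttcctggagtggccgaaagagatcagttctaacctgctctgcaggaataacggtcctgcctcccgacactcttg
CDH2: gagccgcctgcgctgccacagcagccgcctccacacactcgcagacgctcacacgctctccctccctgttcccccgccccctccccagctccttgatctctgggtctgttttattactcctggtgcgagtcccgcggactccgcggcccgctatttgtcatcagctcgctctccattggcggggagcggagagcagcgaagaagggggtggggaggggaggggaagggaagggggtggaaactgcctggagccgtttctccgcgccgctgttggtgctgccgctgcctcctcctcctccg

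In the ZEB1 sequence the E-box letters began at positions -242, -85 and 33 relative to the start base. The ZEB2 and CDH2 sequences held no match in this window. Of 12 promoters listed for 5 members (CDH2, FN1, VIM, ZEB1 and ZEB2), 2 held a match and both were ZEB1 starts, while 5 ZEB1 starts held none. The other one, at chr10:31318167-31318466, had a match at position -57. Among all 35116 promoters of the same length, 20.6% held at least 1 match and 0.635% held 3 or more. These shares are per promoter. The ZEB1 sequence was picked from 7 starts for its matches, so they do not tell how rare it is. A match is a description of letters and not a bound site. CDH1, EPCAM, ESRP1, GRHL2 and SNAI2 were not among the matched promoters.

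Across the 4 inputs of this comparison, total expected counts ranged from 29225501 to 35286514, and between 15806 and 19222 genes had at least 1 count. Zero counts beside a well-covered replicate were frequent. In A549/DDP, 1568 genes had 0 counts in replicate 2 and at least 20 in replicate 1, and 872 genes showed the reverse, against 756 and 664 genes in A549. The keratins KRT7, KRT8 and KRT18, which define epithelial cells, were high in all 4 inputs, and the summed TPM of the 4 keratins listed was 8590 and 11340 in A549 and 15820 and 15870 in A549/DDP. KRT8 and KRT18 rose in A549/DDP by 1.57 and 1.18 on the log2 scale, and KRT7 fell by 1.66 (adjusted p = 0.0324, 0.0146 and 0.0117 in edgeR). KRT19 had 966 and 1457 counts in A549, 213 in A549/DDP replicate 1 and 0 in replicate 2. Summed TPM of 8 fibroblast markers was 15.3 and 7.62 in A549 and 23.0 and 3.78 in A549/DDP, and that of 4 endothelial markers was at most 0.40. Of 5 leukocyte markers CD68 carried the sum, and PTPRC and CD3E had at most 5 counts. Nothing in the labels says that the replicates were separate cultures, so the p-values measure the spread between these libraries, which may be technical.

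Between genes, levels were compared in TPM, an abundance that is scaled for transcript length and library size. In A549 the order was VIM, FN1, CDH2, CDH1, ZEB1, ZEB2, EPCAM, SNAI2, ESRP1 and GRHL2. Of neighbours in that order only CDH1 and ZEB1 overlapped between libraries. In A549/DDP the order was VIM, FN1, CDH1, CDH2, ZEB1, EPCAM, ZEB2, ESRP1, SNAI2 and GRHL2, and the last 4 overlapped with their neighbours. CDH1 thus stood below CDH2 in both A549 inputs and above it in both A549/DDP inputs. VIM and FN1 were the highest members in both lines.

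**Figure D1:**
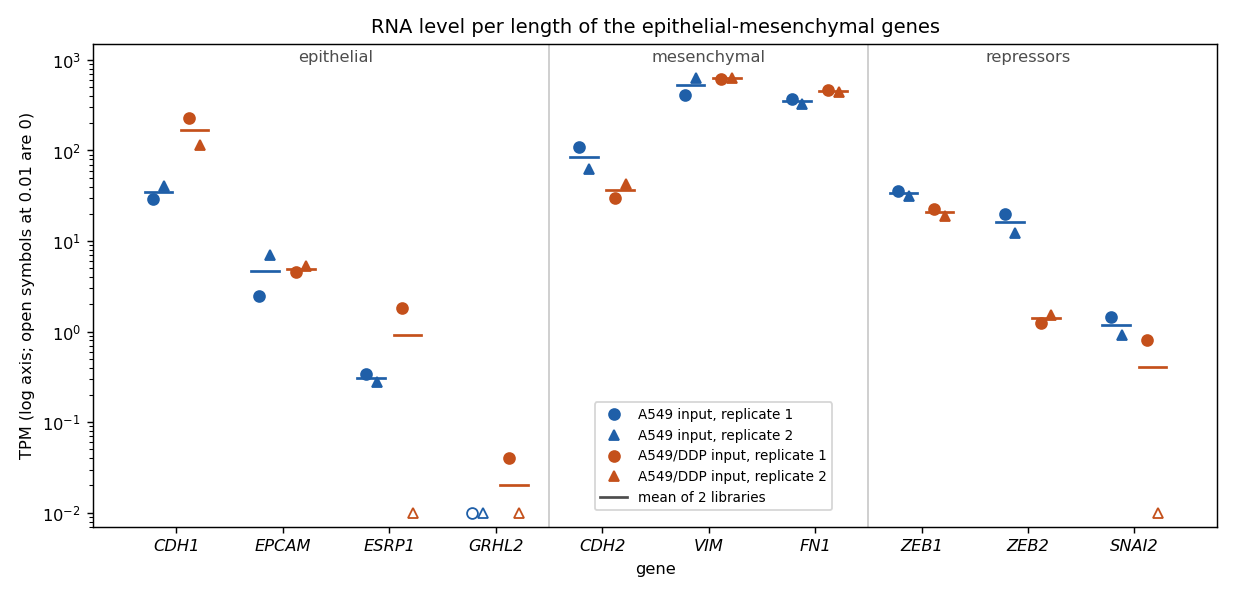
TPM (log axis) of the 10 members in 4 input libraries, with blue symbols for A549, orange symbols for A549/DDP and a bar for the mean of 2 libraries. CDH1 lies between 28.9 and 40.4 TPM in A549 and between 114 and 226 TPM in A549/DDP, while ZEB2 lies between 12.2 and 20.01 TPM and between 1.26 and 1.54 TPM.

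Differences between the lines were tested with edgeR's quasi-likelihood test on rounded expected counts, where 16406 genes passed the count filter and entered the Benjamini-Hochberg adjustment, and a gene was called at an adjusted p under 0.05. Of the 10 members 9 were tested. Of these 1 rose in A549/DDP (CDH1), 2 fell (CDH2 and ZEB2) and 6 did not pass the test. Over all genes tested 14.9% were called, 6.85% higher and 8.0% lower in A549/DDP. The median log2 fold change was -0.07 over the members and -0.0016 over all genes tested. In a bulk sample fewer cells of a type and less RNA per cell cannot be told apart. For 6 of the 9 tested members the CPM of the 2 lines did not overlap, a pattern that 62.4% of all genes tested showed.

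CDH1 (chr16:68737292-68835537, GRCh38.p14) encodes E-cadherin, the adhesion molecule of epithelial junctions. Its CPM, the count scaled by library size with TMM factors and not corrected for length, was 33.6 and 83.4 in A549 and 312 and 249 in A549/DDP. Both A549/DDP inputs were above both A549 inputs. CDH1 rose by 2.26 ± 0.43 (SE) on the log2 scale, a 4.78-fold rise (edgeR, adjusted p = 0.0220). The size of the rise depended on the A549 library, since it was 1.73 without A549 replicate 1 and 3.04 without A549 replicate 2. In TPM CDH1 was at 28.9 and 40.4 in A549 and 226 and 114 in A549/DDP.

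CDH2 (chr18:27932879-28177130) encodes N-cadherin, the mesenchymal and neural counterpart. Its CPM was 213 and 87.3 in A549 and 34.7 and 50.1 in A549/DDP, so the lines did not overlap. CDH2 fell by 1.82 ± 0.44 on the log2 scale (edgeR, adjusted p = 0.0439). The call rested on A549/DDP replicate 1, since without that library the change was -1.60 with an adjusted p of 0.0787. Without A549 replicate 1 the change was -1.06 and without A549 replicate 2 it was -2.34, both called. On log2(TPM + 1), where transcript length enters, limma gave -1.16 with an adjusted p of 0.0970.

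The ratio of CDH1 to CDH2 in TPM was 0.268 and 0.649 in A549 and 7.53 and 2.65 in A549/DDP. Another pair of A549 inputs, labelled like the first but for a full stop, was not part of the fit. These libraries held 855034 and 982036 expected counts, of which 75.2% and 73.9% were mitochondrial. CDH1 had 4 and 8 counts there and CDH2 had 20 and 14, which gave ratios of 0.640 and 0.840. All 4 A549 inputs were therefore below 1 and both A549/DDP inputs above it, with the second pair resting on these few counts.

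Other cadherins and their partners formed a list of 11 genes. Of 9 tested, CDH17 rose, CDH4 and VCL fell, and 6 did not pass the test, with a median of -0.05. CDH17, the cadherin of liver and intestine, was at 12.4 and 10.0 CPM in A549 and 73.6 and 78.9 CPM in A549/DDP, a log2 rise of 2.76 (edgeR, adjusted p = 0.0035). CDH4, known as R-cadherin, was at 127 and 84.7 CPM in A549 and 6.24 and 6.25 CPM in A549/DDP, and fell by 4.08 (edgeR, adjusted p = 0.0023). Like those of CDH2, the CDH4 values of the 2 lines did not overlap. VCL, which links cadherin complexes to actin, fell by 1.25 (edgeR, adjusted p = 0.0086). With the second A549 pair in place of the first the value was 0.93 (edgeR, adjusted p = 0.0146), beside a median of 0.80 over all genes. The catenins CTNNA1, CTNNB1, CTNND1 and JUP, which are part of cadherin complexes, were tested and did not pass. The JUP difference depended on the A549 libraries. It was 0.45 in this fit, 0.08 without A549 replicate 1 and 0.89 without A549 replicate 2. With the second A549 pair it was 2.50 (edgeR, adjusted p = 0.00043).

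Among the repressors ZEB2 (chr2:144384081-144520119) showed the largest change of any member. Its CPM was 53.2 and 25.7 in A549 and 1.69 and 1.38 in A549/DDP, from 1751, 910, 50 and 48 expected counts. Both A549/DDP inputs were far below both A549 inputs. ZEB2 fell by 4.69 ± 0.51 on the log2 scale, 25.7-fold (edgeR, adjusted p = 0.0052). It was -4.08 without A549 replicate 1 and -5.13 without A549 replicate 2, both called. In TPM the values were 20.01 and 12.2 against 1.26 and 1.54.

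ZEB1 (chr10:31318417-31529804), the paralogous repressor, was at 74.5 and 64.2 CPM in A549 and at 36.7 and 41.5 CPM in A549/DDP. The lines did not overlap, but the log2 difference of -0.83 ± 0.22 did not pass (edgeR, adjusted p = 0.0532). Without A549 replicate 2 it did (-0.95, adjusted p = 0.0189 in edgeR). The TPM ratio of ZEB1 to ZEB2 was 1.78 and 2.62 in A549, 1.47 and 1.00 in the second A549 pair, and 17.8 and 12.3 in A549/DDP. ZEB1 was thus not below ZEB2 in any of the 6 inputs, and the ratio was highest in the A549/DDP inputs. The second pair held 6 and 8 counts of ZEB1 and 4 and 5 of ZEB2.

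SNAI2, the gene of the repressor Slug, was at 2.01 and 1.10 CPM in A549, at 1.05 CPM in A549/DDP replicate 1 and at 0 in replicate 2. Its log2 difference was -1.57 ± 2.28 (edgeR, adjusted p = 0.716). A count of 0 in A549/DDP replicate 2 allows up to 3 counts, 0.0860 CPM, and covers counting error only. Of 10 other transcription factors of the transition 6 were tested, 0 rose and 1 fell at the edgeR threshold, with 2 at an unadjusted p under 0.05. TCF4, an E-box binding factor, was at 8.33 and 7.17 CPM in A549 and at 0.708 and 0.516 CPM in A549/DDP, and fell by 3.65 (edgeR, adjusted p = 0.0456). Without A549 replicate 1 or 2 its adjusted p in edgeR was 0.236 and 0.127, and with the replicate number as a block it was 0.0518. FOXC2, a forkhead factor, was at 2.16 and 2.40 CPM in A549 and at 11.2 and 9.43 CPM in A549/DDP, a log2 difference of 2.18 (edgeR, adjusted p = 0.0728). The median of the 6 was -0.07.

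The mesenchymal structural members stayed high in both lines. VIM (chr10:17228241-17237593), the intermediate filament of mesenchymal cells, was at 505 and 670 CPM in A549 and 699 and 718 CPM in A549/DDP. In TPM VIM was at 415 and 638 in A549 and 615 and 638 in A549/DDP, so there the groups overlapped. In CPM they did not overlap, yet A549 replicate 2 was close to both A549/DDP inputs. The log2 difference was 0.27 ± 0.18 (SE) (edgeR, adjusted p = 0.377). Without A549 replicate 2 it was 0.47 (edgeR, adjusted p = 0.0041). FN1 (chr2:215360865-215436068), which encodes the matrix protein fibronectin, was at 1602 and 1214 CPM in A549 and 1550 and 1509 CPM in A549/DDP. In TPM, which is scaled for length, FN1 was at 371 and 328 in A549 and 471 and 438 in A549/DDP, without overlap. On log2(TPM + 1) limma gave 0.38 with an adjusted p of 0.216. In CPM the lines overlapped, and the log2 difference was 0.12 ± 0.18 (edgeR, adjusted p = 0.721). Without A549 replicate 1 it was 0.32 (edgeR, adjusted p = 0.0115), and without A549 replicate 2 it was -0.08.

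A list of 25 other mesenchymal and matrix genes had 24 tested, of which 2 rose, 5 fell and 17 did not pass, with a median of 0.01. The 2 that rose were TGFBI, a matrix protein induced by TGF-beta, by 1.71 (edgeR, adjusted p = 0.0030), and MSN, which ties the membrane to actin. AXL, a receptor tyrosine kinase, went from 1152 and 749 CPM to 80.1 and 75.9 CPM and fell by 3.61 (edgeR, adjusted p = 0.0023). FSTL1, a secreted glycoprotein, fell by 1.90 (edgeR, adjusted p = 0.0104), and LOXL2 and THBS1 also fell. With the second A549 pair in place of the first, however, LOXL2 was at 0.27, beside a median of 0.80 over all genes. The adjusted p of MSN in edgeR was 0.157 and 0.115 without A549/DDP replicate 1 or 2, and without A549 replicate 1 the number of genes called was 12. The list therefore held genes moving in opposite directions, and VIM and FN1 lay inside its spread.

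The epithelial members other than CDH1 were low in both lines. EPCAM (chr2:47369311-47387020), an epithelial adhesion molecule, was at 1.91 and 5.67 CPM in A549 and at 2.50 and 4.73 CPM in A549/DDP. The 2 lines overlapped, with a log2 difference of -0.07 ± 0.99 (edgeR, adjusted p = 0.974), so at this spread a change of either sign was not detectable. ESRP1, which directs epithelial splicing, was at 0.699 and 0.621 CPM in A549, at 2.53 CPM in A549/DDP replicate 1 and at 0 in replicate 2. Its log2 difference of 0.93 ± 2.39 did not pass (edgeR, adjusted p = 0.850), and replicate 1 of A549/DDP alone was above A549. GRHL2, a transcription factor of epithelial junction genes, had 0 counts in both A549 inputs, 4 in A549/DDP replicate 1 and 0 in replicate 2, and was not tested.

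Other epithelial transcription and splicing factors formed a list of 14 genes, of which 11 were tested. Of these 3 rose, 0 fell and 8 did not pass, with a median of 0.72, and 5 had an unadjusted p under 0.05 in edgeR. EHF, an ETS factor of epithelia, was at 1.85 and 5.42 CPM in A549 and at 56.6 and 63.7 CPM in A549/DDP and rose by 4.04 (edgeR, adjusted p = 0.0090). The related ELF3 rose by 1.24, from 89.6 and 95.9 CPM to 236 and 203 CPM (edgeR, adjusted p = 0.0098). FOXA1, a factor of lung and gut epithelium, rose by 1.70 (edgeR, adjusted p = 0.0227). These 3 genes had the direction of CDH1, while the members ESRP1 and GRHL2 had at most 75 counts in any input. Without A549/DDP replicate 1 the adjusted p of FOXA1 in edgeR was 0.0503, and without A549 replicate 1 the number called was 5, with 4 higher and 1 lower. KLF5, a Krüppel-like factor, was at 183 and 190 CPM in A549 and at 98.2 and 132 CPM in A549/DDP. Its log2 difference was -0.69 and did not pass (edgeR, adjusted p = 0.0703). It was -0.73 and -0.68 without A549 replicate 1 or 2, and -0.51 and -0.93 without A549/DDP replicate 1 or 2.

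Of 19 epithelial junction and surface genes 15 were tested, 2 rose, 2 fell and 11 did not pass, with a median of 0.30. CD24, a surface glycoprotein, rose by 1.51, and DSP, the desmosomal linker desmoplakin, rose by 0.76 (edgeR, adjusted p = 0.0182 and 0.0270). PKP2, a desmosomal plakophilin, fell by 1.76, and ITGB4, the hemidesmosome integrin, fell by 1.71 (edgeR, adjusted p = 0.0104 and 0.0089). Without A549/DDP replicate 1 or 2 the adjusted p of DSP in edgeR was 0.123 and 0.179. In this fit junction genes thus moved in both directions beside the rise of CDH1. The calls of the falls depended on the fit. Limma on log2(TPM + 1) called 2 of the list higher and 0 lower. With the second A549 pair in place of the first, edgeR called 3 higher and 0 lower, beside a median of 0.80 over all genes. PKP2 stayed between -1.97 and -0.52 and ITGB4 between -1.96 and -0.94 in every fit.

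**Figure D2:**
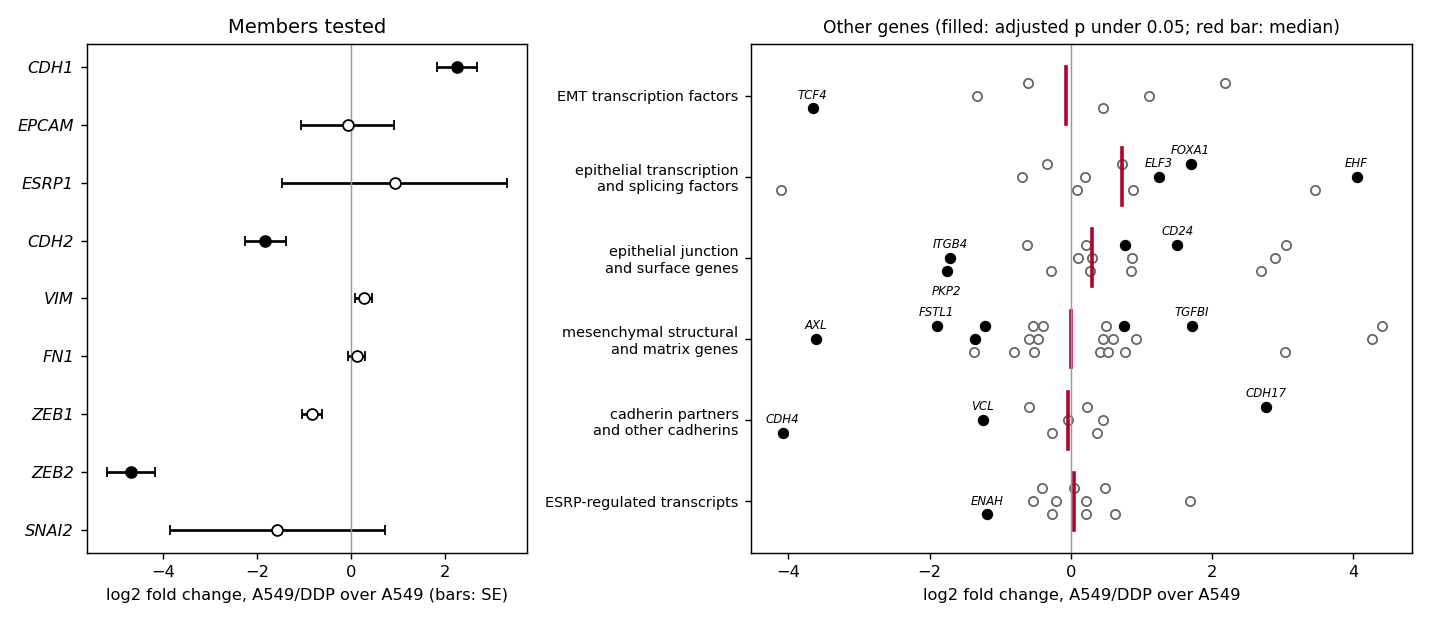
Left, log2 fold change of the 9 tested members in A549/DDP over A549 with its SE; right, the same for other genes by list, with filled points for an edgeR adjusted p under 0.05 and a red bar for the list's median. CDH1 at 2.26, CDH2 at -1.82 and ZEB2 at -4.69 are the filled members, and the list medians lie between -0.07 and 0.72.

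By the Euclidean distance over the 4 inputs, in log2(CPM + 0.5) with each gene centred on its mean, the genes most like CDH1 were NBEAL2, COQ8A and NHERF2, at distances of 0.111, 0.129 and 0.144. Those most like ZEB2 were SYNE1, NIPAL4 and COL11A1, at distances of 0.196, 0.235 and 0.275. Their log2 fold changes in edgeR were -4.50, -4.66 and -8.79, against -4.69 for ZEB2. ZEB2 was at 1.69 and 1.38 CPM in A549/DDP. The added 0.5 compresses differences near 0, so genes with unlike fold changes can lie close to ZEB2. With 4 libraries such a likeness is a description. RNAs tied to the members were mostly at or near 0. ZEB2-AS1 and the miRNA hosts MIR200CHG and MIR205HG had 0 counts in all 4 inputs. ZEB1-AS1 was the only one of 5 tested, with a log2 difference of -0.09 (edgeR, adjusted p = 0.960), so in edgeR 0 of this list were called and 0 had an unadjusted p under 0.05.

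The gene tables also give each gene's transcript length, weighted by the estimated abundance of its isoforms, which shifts when a gene's isoforms change in proportion. The lines were counted as different where the 2 lengths of each line did not overlap and the means differed by at least 10%, in genes with at least 20 counts in every input. This held for 27.4% of 12439 genes and for 3 of the 7 members with enough counts. The estimate has no error of its own in the tables, and no test was run.

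For FN1, whose alternative exons give several fibronectin forms, the weighted length was 6354 and 6234 bases in A549 and 5184 and 5469 bases in A549/DDP, so the mean fell by 15.4%. CDH2 was at 2958 and 2442 bases in A549 and 1900 and 1928 bases in A549/DDP, so its mean fell by 29.1%. ZEB2 was at 3955 and 3607 bases against 2173 and 1514 bases, and its mean fell by 51.2%. Thus FN1, which did not pass the test for its level, had lengths that separated the lines. The ZEB2 lengths of A549/DDP rest on 50 and 48 counts.

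CDH1 lengths followed the replicates and not the lines, with 1794 and 3534 bases in A549 and 2239 and 3502 bases in A549/DDP. VIM stayed between 1856 and 1874 bases in all 4 inputs. Among transcripts known to be spliced by ESRP proteins, 10 of 11 had enough counts and 2 of the 10, FGFR2 and CD44, differed in length, no larger a share than the 27.4% of all genes. CD44, a hyaluronan receptor with variable exons that epithelial cells include, was at 1031 and 1033 bases in A549 and 1683 and 1561 bases in A549/DDP, 57.1% longer. FGFR2, whose epithelial form depends on ESRP, was at 2274 and 674 bases in A549 and 2372 and 3085 bases in A549/DDP, 85.1% longer in the mean. That value rested on A549 replicate 2, since A549 replicate 1 was close to A549/DDP replicate 1, and FGFR2 had 23 and 72 counts in A549 and 102 and 187 in A549/DDP. At the level of counts 1 of the 11 was called, ENAH, an actin regulator that fell by 1.18 (edgeR, adjusted p = 0.0082), and the median was 0.04. Without A549/DDP replicate 1 its adjusted p was 0.0504 and 0 were called, and without either A549 replicate 2 were called. ESRP1 itself stayed at or below 2.53 CPM. Which exons changed was not tested.

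In the m6A-seq, the authors' peak lists held 26320 and 14576 peaks for A549 replicates 1 and 2 and 27244 and 10661 peaks for A549/DDP replicates 1 and 2. The members held 14, 6, 7 and 0 of them, in 5, 3, 2 and 0 members. Of the genes tested for expression 43.7%, 30.6%, 40.7% and 22.2% held a peak in these lists. The lists give a p-value per peak and no read counts, so the depth is unknown, and a missing peak does not show missing methylation. FN1, EPCAM, ESRP1, SNAI2 and GRHL2 had no called peak in any list, although FN1 was among the highest members.

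ZEB1 held the most peaks, 6 and 4 in the A549 lists and 4 and 0 in the A549/DDP lists. They covered 2355, 1254 and 1503 bases in the 3 lists that had them. Of these 14 peaks all but 2, both in A549 replicate 1, began 196277 bases or more after the start of the gene. The merged region chr10:31521110-31527314, which spans separate exon blocks and ends 2490 bases before the end of the gene, was called in both A549 lists and in A549/DDP replicate 1. So was the region chr10:31514694-31520561. ZEB2 had 4 peaks in A549 replicate 1, the nearest 5190 bases before the end of the gene, and none in the other 3 lists, and its RNA in A549/DDP was at 1.26 and 1.54 TPM.

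CDH1 had a peak at chr16:68833357-68833606, 1931 bases before the end of the gene, in A549 replicate 1 (p = 3.2e-05 in the authors' list) and an overlapping peak in replicate 2 (p = 0.01 in the authors' list). Neither A549/DDP list had a CDH1 peak, although CDH1 RNA was higher there. This was the only 1 of 16 merged member regions found in both A549 lists and in neither A549/DDP list, and 0 were found in both A549/DDP lists only. Among all 37903 merged regions these patterns held 6.12% and 3.09%. With peaks at p of 1e-05 or below, no CDH1 peak was left in any list. CDH2 had 1 peak, in A549 replicate 1. Of the members 3 of 10 (CDH1, VIM and ZEB1) held a peak in both A549 lists, beside 27.1% of the genes tested.

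VIM peaks lay near the start of the gene, except for the peak at chr10:17236049-17236148 in A549/DDP replicate 1. It ended 1445 bases before the end of the gene. The merged region chr10:17228606-17229889 began 365 bases after the start and was called in both A549 lists and in A549/DDP replicate 1. On the opposite strand the antisense RNA VIM-AS1, with at most 37 counts per input, had called peaks in all 4 lists over the same bases. They shared 498 bases with VIM peaks in A549 replicate 1 and 299 in replicate 2. In A549/DDP replicate 1 they also overlapped VIM peaks, and in replicate 2, whose list had no VIM peak, the VIM-AS1 peaks shared 392 and 52 bases with the VIM peaks of other lists. The libraries were made by a strand-specific method per the labels, but whether the peak calling used strand is not given in the sources used here, so a peak of VIM and one of VIM-AS1 cannot be told apart. A ZEB1-AS1 peak in A549 replicate 1 likewise shared 36 bases with a ZEB1 peak.

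**Figure D3:**
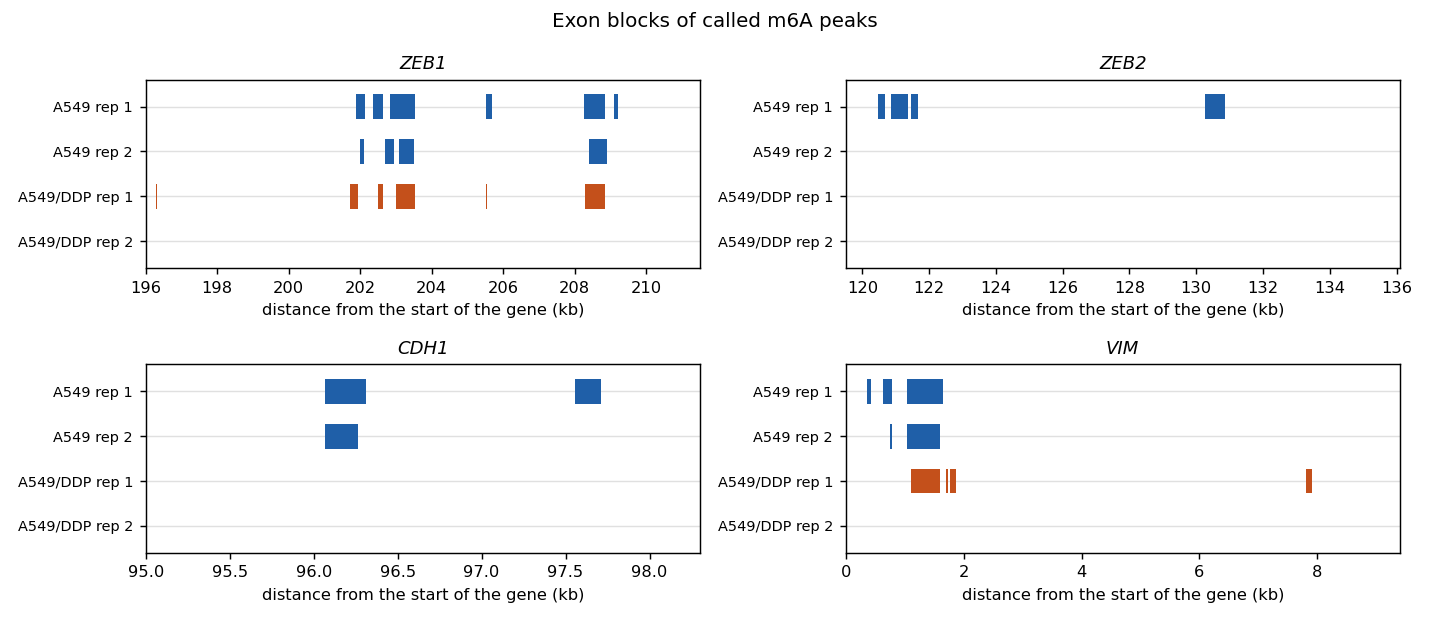
Exon blocks of called m6A peaks along ZEB1, ZEB2, CDH1 and VIM by library, with distance from the start of the gene in kilobases on the x axis and each panel cut to the part that holds most peaks. A549/DDP replicate 2 has no block in any panel, ZEB2 has blocks in A549 replicate 1 only, and both A549 lists share a CDH1 block.

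Among the 93 other genes of the lists, 5 had called peaks in both A549/DDP lists and in neither A549 list, a pattern that 1.97% of the genes tested showed. They were AXL, CD44, EHF, JUP and LOXL2. EHF RNA rose in A549/DDP, AXL and LOXL2 RNA fell, and JUP did not pass the test. CD44 was at 394 and 348 CPM in A549 and 248 and 263 CPM in A549/DDP, a log2 difference of -0.54 (edgeR, adjusted p = 0.0733). On log2(TPM + 1), where its longer weighted length in A549/DDP enters, limma gave -1.24 with an adjusted p of 0.0141. In DESeq2 CD44 passed (-0.53, adjusted p = 0.0065), and with the replicate block it did not (edgeR, adjusted p = 0.0731). No member had peaks in both A549/DDP lists and in neither A549 list. The reverse, peaks in both A549 lists and in neither A549/DDP list, held for 4.62% of the genes tested, for CDH1 among the members and for CDH4, ITGB4 and PKP2 among the others, of which CDH1 rose and the other 3 fell. The part of RNA level, list size and replicate in the presence of peaks was not tested.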

How the data were processed

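The submitters' processing notes name STAR, RSEM and bedtools and the hg38 build, while the peak caller and the meaning of its p-value (raw or adjusted) are not given in the sources used here. For each input the authors deposited RSEM expected counts, which are estimates and not normalized, with TPM and FPKM scaled for length and library size, and the transcript lengths. For each m6A-seq library the authors deposited their called peaks, each with a p-value. The tables held 58037 gene identifiers, of which 56993 matched a symbol. Groups and replicate numbers came from the labels. In the A549 m6A-seq libraries those numbers are exchanged relative to the names of the deposited lists, and the labels were followed.

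Rounded expected counts of the 2 A549 and 2 A549/DDP inputs passed through filterByExpr and TMM scaling, and glmQLFit and glmQLFTest of edgeR 4.0.16 (R 4.3.3) compared the lines, with Benjamini-Hochberg adjustment over 16406 genes. The common biological coefficient of variation was 0.656. SE was approximated as the absolute log2 fold change over the root of F. Alternatives were DESeq2 1.42.0, limma 3.58.1 with trend on log2(TPM + 1) or log2(TPM + 0.1), other filters and scalings, the second A549 pair, a replicate block, FPKM or effective length, and leaving out each replicate, where the lone library was assumed to vary like the others. Peaks were merged where their exon blocks overlapped on 1 strand by 1 base or more, and positions count from 1. Gene spans and promoters are from RefSeq (GRCh38.p14). Python 3.11.15 with pandas 2.3.3, numpy 2.4.6 and matplotlib 3.10.9 was used.

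The members and lists were chosen with earlier results of these data known. Besides the members, named genes were up to 4 per list with the largest change among those called at a mean of at least 1 CPM, with ESRP-regulated transcripts for length and the 3 genes nearest to CDH1 and ZEB2. LOXL2, THBS1, MSN, FOXC2, KLF5, KRT19 and the catenins, CD68, PTPRC and CD3E, and genes named for their peaks or for no counts, were added after their values were seen. A mesenchymal gene and a leukocyte marker of the lists are counted but not named or drawn here. No genome sequence or exon annotation was used here, so exon positions and motifs of peaks were not analysed.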

Additional observations from a re-analysis of the deposited data

How the results depend on the processing

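Over 14 alternatives CDH1 kept its direction (1.73 to 3.04) and passed in 13, and ZEB2 kept its (-5.13 to -2.80) and passed in 13. CDH2 kept its direction (-2.34 to -1.06) and passed in 9, and ZEB1 kept its (-0.95 to -0.58) and passed in 5. The alternative in which CDH1 and ZEB2 did not pass, limma on TPM without a filter, called 0 of 22802 genes, with 4519 at an unadjusted p under 0.05, and 0 of each list. The number of members called was 5 with the second A549 pair (where VIM was 2.24, FN1 2.04 and the median of all genes 0.80) and 2 to 5 without 1 replicate. Expected counts of the second pair outside mitochondrial genes were 211799 and 256064, which limits what it can show.

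Genes called in all, 2437 in the reported fit, numbered 4234 with DESeq2, 4010 without a filter, 1492 and 1177 with limma on log2(TPM + 1) and log2(TPM + 0.1), 3758 with the second A549 pair, 677 with both pairs and 2052 to 3809 without 1 replicate (3809 without A549 replicate 2). With the second pair, 2371 of the calls were higher and 1387 lower in A549/DDP. Without A549/DDP replicate 1 or 2 the median of all genes was -0.20 and -0.11, and members should be read relative to it.

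Of the EMT transcription factors (1 called), DESeq2 and a minimum of 10 counts in every library called 2 (1 higher, FOXC2, and 1 lower), the second pair called 1 (higher), limma on TPM at either pseudocount and both A549 pairs called 0, and leaving out 1 replicate gave 0 to 1. Of the epithelial transcription and splicing factors (3 called), 5 were called with DESeq2, without a filter and with a minimum of 10 counts (4 higher and 1 lower each, the lower one KLF5), and 3 to 5 without 1 replicate. Of the junction genes (4 called), limma called 2 at either pseudocount, both pairs called 0 and leaving out 1 replicate gave 3 to 5. Of the mesenchymal genes (7 called), both pairs called 3 and leaving out 1 replicate gave 6 to 12. Of the cadherin list (3 called) the second pair called 6 (6 higher and 0 lower). Of the ESRP-regulated transcripts (1 called), DESeq2 called 3, a minimum of 10 counts and limma at either pseudocount 2, the second pair 7, both pairs 0, and leaving out 1 replicate gave 0 to 2. The causes were not tested.

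With the replicate number as a block 3536 genes and 4 members were called, ZEB1 being added with -0.83 (edgeR, adjusted p = 0.0366), while TCF4 was lost so that 0 EMT factors were called, and 5 epithelial factors were called (4 higher and 1 lower, KLF5). The deviations of same-numbered libraries correlated at 0.0227 over genes. A value over all genes cannot decide whether the numbers pair the samples.

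Members that did not pass changed sign in places. EPCAM was 0.18 and 0.25 with limma at the 2 pseudocounts and 0.18 with limma on log2(TPM + 1) without a filter. In edgeR it was 0.058 with the block, 8.87 with the second pair and 0.19 with both pairs. It was 0.90 without A549 replicate 2 and 0.30 without A549/DDP replicate 1, and its range without 1 replicate was -0.66 to 0.90. ESRP1 was -1.79 with the block and -7.52 without A549/DDP replicate 1, with a range of -7.52 to 1.92 without 1 replicate. FN1 was -0.083 without A549 replicate 2, with a range of -0.083 to 0.32.

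Member peaks numbered 27 in the reported lists, 17 at p of 1e-05 or below and 13 in lists of 10661 peaks each. Member regions called in both libraries of 1 line only numbered 1, became 0 under both of these choices, were 2 when 50% of the shorter peak had to overlap, and were 3 to 10 without 1 replicate, since a line then needs only 1 list. FPKM in place of TPM and effective length in place of length changed no count of members.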
